A study of Mus musculus with 15 samples.

Results

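Ccl2, Ccl7 and Ccl9 are 3 chemokine genes of the CC family, and their rows were taken by symbol from count and FPKM tables of 25239 genes. The tables come from RNA immunoprecipitation followed by sequencing (RIP-seq), in which RNA that co-precipitates with a protein is sequenced, in ST2, an established line of stromal cells from the marrow of mouse bone. The study asked which transcripts Arid5a, an RNA-binding protein, binds in these cells, with and without the cytokine IL-17. The 15 libraries fall into 4 groups: the Arid5a RIP after IL-17 (4 libraries), the IgG RIP after IL-17 (3 libraries, numbered 2, 3 and 4), the Arid5a RIP in medium (4 libraries) and the IgG RIP in medium (4 libraries). IL-17 was given at 200 ng/mL, both arms lasted 3 h, and all cells were trypsinized and fixed with 1% formaldehyde before lysis. The IgG RIP used mouse IgG2b, and no group carries a genetic change. The labels do not say that libraries of a group came from separate cultures of this single line, so the spread between them may be technical. No library of unprecipitated RNA was analysed here, so a change within 1 RIP is not separated from a change in the RNA of the cells, nor more RNA per cell from more cells.

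CC chemokines are small secreted proteins that bind G protein-coupled receptors on leukocytes and draw them along a gradient. Ccl2 (monocyte chemoattractant protein 1) acts through Ccr2 and releases monocytes from the bone marrow, Ccl7 (monocyte chemoattractant protein 3) acts through Ccr2 and further CC receptors, and Ccl9, known from mice, acts through Ccr1 on monocytes and osteoclast precursors. IL-17 acts on stromal cells through NF-kB and C/EBP factors and by prolonging the life of short-lived mRNAs, and Ccl2 and Ccl7 are textbook IL-17 targets. Arid5a is known to stabilise mRNAs of inflammatory genes.

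All 3 genes lie on mouse chromosome 11 and overlap no other gene model in the RefSeq annotation of GRCm38.p6, the assembly named mm10. Ccl2 spans 82035577 to 82037452 and Ccl7 spans 82045712 to 82047525, so 8259 bp separate these neighbours. Ccl9 lies farther along, from 83572917 to 83578636, with Ccl6 as its nearest protein-coding chemokine gene at 9249 bp. Of the 8 other protein-coding CC chemokine genes of the chromosome 11 clusters (Ccl1, Ccl3, Ccl4, Ccl5, Ccl6, Ccl8, Ccl11 and Ccl12), none passed the filter on low counts, and the most counts any of them had in a library was 18 (Ccl6). The closest one to Ccl7, Ccl11, lies 10306 bp away and had at most 14 counts. High levels were thus limited to 3 genes of the 11 measured in these clusters. The 45 values of Ccl2, Ccl7 and Ccl9 were whole numbers.

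No upstream window of Ccl2 or Ccl7 was at hand for comparison. Ccl9 was the only 1 of the 3 genes with an entry in the promoter table. The 250 bases before its RefSeq start (GRCm38.p6, chr11:83578637-83578886, minus strand) read, with motif matches in capitals:
Ccl9 upstream: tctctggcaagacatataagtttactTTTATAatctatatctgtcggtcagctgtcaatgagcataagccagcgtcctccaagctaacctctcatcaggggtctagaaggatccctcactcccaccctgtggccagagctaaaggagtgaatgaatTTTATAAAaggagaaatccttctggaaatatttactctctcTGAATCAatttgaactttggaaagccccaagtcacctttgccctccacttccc
Both strands were searched for the AP-1 motif, whose letters TGANTCA are their own reverse complement. A match begins 53 bases before the start, and 6.75% of 32851 such windows hold a match to the AP-1 letters. The TATA box was searched as TATAAA. It matched 92 bases before the start, and on the other strand from bases 94 and 224 before it, the first of these overlapping the forward match; 12.4% of windows hold one. The C/EBP motif was searched as TTGCNNAA. Its letters, found in 9.56% of windows, are not in this window. These are matches of letters only.

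The 3 genes were chosen by symbol with their values in these libraries known, and which comparison led to the choice is not stated, so all 5 comparisons are treated as used. Their folds are therefore given as descriptions with a standard error (SE) derived from the fit and no p. A gene is said to be called where its Benjamini-Hochberg adjusted p, over the 17835 transcripts that passed the filter in an edgeR quasi-likelihood fit to all 15 libraries, was below 0.05. All 3 genes passed that filter. Values between groups are in CPM (counts scaled to library size with TMM factors).

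The libraries held 939139 (IgG medium 2) to 5713913 (Arid5a IL-17 3) counts. The 3 genes had 63 to 1953 counts per library, so counting error alone was 2.26% to 12.6% of a value. The 15 stromal markers, of which 14 passed the filter, summed to 19840 to 24371 CPM per library. Col1a1, Col1a2, Fn1 and Sparc, high ones of this list, each averaged 1105 CPM or more in every group, whereas Dcn and Lum had at most 11 and 19 counts. The 13 epithelial and endothelial markers, which all passed the filter, summed to 21.2 to 105 CPM. Col1a1 was called lower in Arid5a than in IgG medium libraries (-0.48 ± 0.12, adjusted p = 0.0472, edgeR), as Ccl7 and Ccl9 were, but in only 5 of 26 alternative fits and in none of the 3 with other scaling factors. The 16 monocyte and macrophage markers summed to 19.4 to 55.9 CPM per library, and none of the 16 was at 0 in all libraries. Of the 16, 11 passed the filter, and the most counts any of them had in a library was 47. The leukocyte genes Ptprc and Tyrobp, 2 low ones of this list, had at most 12 and 3 counts. The sums of the 16 markers were 23.8 to 39.9 CPM in Arid5a IL-17 and 19.4 to 28.5 in IgG IL-17 libraries. In medium they were 43.8 to 55.9 in Arid5a and 20.2 to 52.3 in IgG libraries. Counts on 1492 olfactory and vomeronasal receptor genes, silent in most cells, made up 1287 to 4205 CPM in Arid5a IL-17 and 2249 to 3503 in IgG IL-17 libraries, and 3362 to 5447 in Arid5a medium and 1805 to 3176 in IgG medium libraries. The receptor gene sum was thus higher in every Arid5a medium than in every IgG medium library. With IL-17, Arid5a libraries 1, 2 and 3 (1476, 1599 and 1287 CPM) lay below all IgG IL-17 and all Arid5a medium libraries, and Arid5a IL-17 library 4 (4205 CPM) stood apart from them. The monocyte and macrophage marker sums overlapped between the RIPs, and were lower in every Arid5a IL-17 than in every Arid5a medium library. Their part in the folds was not tested.

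TMM scaling left the well-expressed transcripts (5394 whose mean log2 CPM reached 5) at a median log2 fold other than 0. That median was 0.15 for Arid5a over IgG with IL-17, -0.19 in medium, 0.34 for the change between these, 0.30 for IL-17 over medium in the Arid5a RIP and -0.04 in the IgG RIP. The folds of Ccl2, Ccl7 and Ccl9, which belong to these transcripts, are to be read against those medians.

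Ccl2 was the most abundant of the 3 transcripts per unit length after IL-17. Its level was 612 ± 66.2 FPKM (SD, n = 4) in the Arid5a RIP and 569.6 ± 149 FPKM (n = 3) in the IgG RIP with IL-17, against 68.9 ± 8.59 FPKM (n = 4) in the Arid5a RIP and 101 ± 16.3 FPKM (n = 4) in the IgG RIP in medium. By mean FPKM it ranked 179 and 174 of 25239 genes in the Arid5a and IgG RIPs with IL-17 and 1099 and 841 in medium.

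Ccl7 followed with 423 ± 58.8 FPKM in the Arid5a RIP and 272 ± 37.6 FPKM in the IgG RIP with IL-17, and 59.9 ± 4.84 FPKM in the Arid5a RIP and 107 ± 31.2 FPKM in the IgG RIP in medium. In IgG medium its libraries (63.0 to 133 FPKM) overlapped those of Ccl2 (80.5 to 115 FPKM), so these neighbours in the order did not differ beyond their spread. In the Arid5a RIP in medium the ranges overlapped too, at 54.3 to 65.9 FPKM for Ccl7 and 56.5 to 76.4 for Ccl2. With IL-17, Ccl2 stood above Ccl7 without overlap in both RIPs.

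Ccl9 was the lowest per unit length in all 4 groups, with 62.6 ± 0.716 FPKM in Arid5a IL-17 and 49.2 ± 7.94 FPKM in IgG IL-17 libraries, and 38.8 ± 3.40 FPKM in Arid5a medium and 54.9 ± 13.8 FPKM in IgG medium libraries. Its libraries in IgG medium (41.5 to 72.1 FPKM) overlapped those of Ccl7, while in the other 3 groups they lay below both other genes. The highest and lowest group means of Ccl9 thus lay 0.69 apart on the log2 scale, against 3.15 for Ccl2 and 2.82 for Ccl7.

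**Figure D1:**
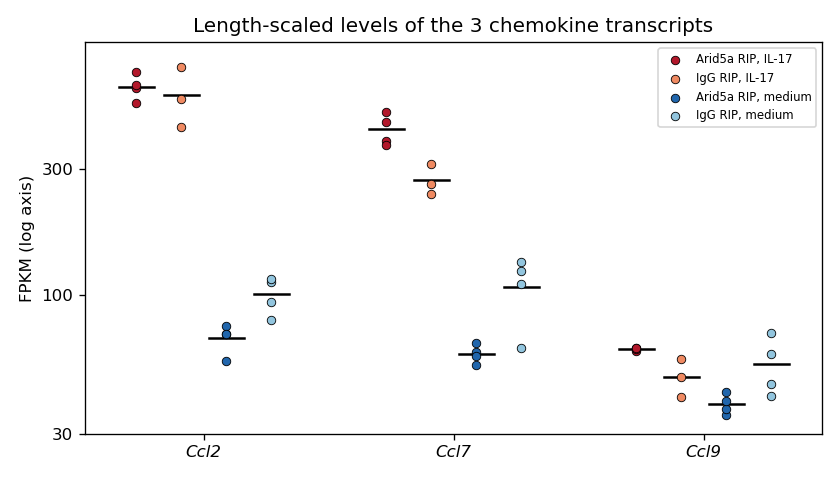
Levels of Ccl2, Ccl7 and Ccl9 in FPKM (log axis) in each of the 15 libraries, with the 4 groups side by side within a gene; points are libraries and bars are group means. Ccl2 and Ccl7 are far above Ccl9 with IL-17, and close to each other in medium.

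Within the Arid5a RIP, IL-17 libraries were set against medium libraries to ask how the treatment moved what the Arid5a antibody recovered, and all 3 chemokine transcripts were called higher. Against them, 4.84% of all tested transcripts were called higher in this comparison. Ccl2 stood at 409, 337, 317 and 341 CPM in Arid5a IL-17 libraries 1 to 4, against 41.7, 31.0, 41.0 and 41.4 CPM in Arid5a medium libraries 1 to 4. The lowest IL-17 library lay several-fold above the highest medium library. The log2 fold was 3.17 ± 0.18 (SE), a 9.02-fold rise and the second largest among the 5394 well-expressed transcripts.

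Ccl7 was at 262, 272, 225 and 200.5 CPM in Arid5a IL-17 libraries 1 to 4, and at 35.2, 31.8, 34.9 and 31.1 CPM in Arid5a medium libraries. Its groups were also apart without overlap, and the medium libraries averaged 33.2 ± 2.11 CPM (SD). The log2 fold was 2.85 ± 0.18, or 7.21-fold.

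Ccl9 moved less, at 195, 188, 188 and 169 CPM in Arid5a IL-17 libraries 1 to 4, and 95.1, 92.5, 106 and 106 CPM in Arid5a medium libraries. The groups did not overlap, a separation upward that 10.7% of all tested transcripts shared. The log2 fold was 0.89 ± 0.17, or 1.85-fold, of which 0.58 remained above the median of the well-expressed transcripts. The stromal markers Col3a1 (0.58 ± 0.15), Fn1 (0.48 ± 0.11), Col1a2 (0.46 ± 0.13) and Sparc (0.40 ± 0.12) were also called higher here, though not with the 3 other scaling factors; their part in the fold of Ccl9 was not tested. With limma on log2(FPKM + 1) and on log2(FPKM + 0.1), Ccl9 had folds of 0.68 and 0.69 on those scales and was no longer called.

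**Figure D2:**
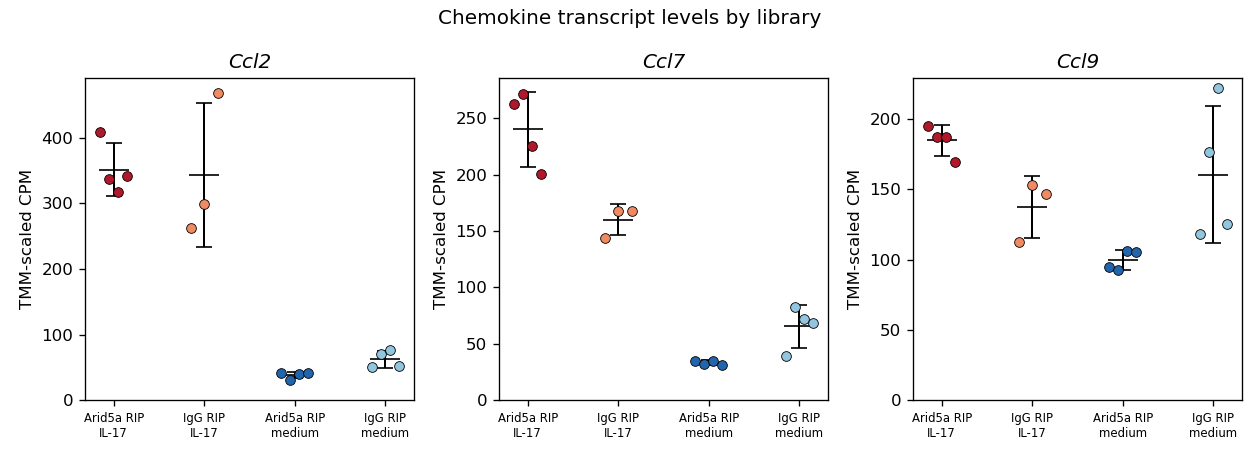
TMM-scaled CPM of Ccl2, Ccl7 and Ccl9 in each library of the 4 groups; points are libraries, horizontal bars group means and whiskers the SD. IL-17 libraries stand apart from medium libraries for Ccl2 and Ccl7 in both RIPs, and for Ccl9 in the Arid5a RIP.

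Within the IgG RIP, the same treatment raised Ccl2 and Ccl7 but left Ccl9 with overlapping groups. These 2 calls compare with 0.258% of all tested transcripts called higher. Ccl2 was at 262, 299 and 468 CPM in IgG IL-17 libraries 2 to 4, against 50.5, 70.8, 76.2 and 52.8 CPM in IgG medium libraries 1 to 4. IgG IL-17 library 4 was the highest of all 15 for Ccl2. The log2 fold was 2.47 ± 0.19, or 5.54-fold.

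Ccl7 was at 144, 168 and 167 CPM in IgG IL-17 libraries 2 to 4, and at 39.1, 83.1, 71.9 and 68.2 CPM in IgG medium libraries 1 to 4. Library 1 of IgG medium was the low one, and the groups did not overlap, as for 4.27% of tested transcripts in that direction. The log2 fold was 1.32 ± 0.19, or 2.50-fold.

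Ccl9 was at 113, 153 and 146 CPM in IgG IL-17 libraries 2 to 4, and at 118, 176, 222 and 125 CPM in IgG medium libraries 1 to 4. These groups overlapped and the log2 fold of -0.22 ± 0.18 was not called, with a 95% interval of -0.57 to 0.14. The calls of Ccl2 and Ccl7 in this comparison, and of Ccl2 and Ccl7 in the Arid5a RIP, were present in each of the 26 alternative fits.

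In medium, the comparison of the Arid5a RIP with the IgG RIP asked which transcripts the Arid5a antibody recovered more or less than the control before stimulation. In TMM-scaled CPM, all 3 chemokine transcripts were lower in every Arid5a medium library than in every IgG medium library. Of tested transcripts, 4.05% shared this separation. By FPKM, Ccl7 and Ccl9 overlapped, with Arid5a medium library 3 (65.9 and 43.1) above IgG medium library 1 (63.0 and 41.5). Scaled by library totals, these libraries overlapped too (39.8 against 38.6 CPM for Ccl7, 121 against 117 for Ccl9). Ccl7 and Ccl9 were called lower, as 0.572% of tested transcripts were. Ccl7 averaged 33.2 ± 2.11 CPM in Arid5a medium and 65.6 ± 18.8 CPM in IgG medium libraries (SD, n = 4 each), and its log2 fold was -0.94 ± 0.19. It lay 0.75 below the median of the well-expressed transcripts, 33rd from the bottom of 5394. IgG medium library 1, at 39.1 CPM, was near the Arid5a medium libraries (31.1 to 35.2 CPM), and the other 3 lay at 68.2 CPM or above.

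Ccl9 averaged 99.9 ± 7.10 CPM in Arid5a medium and 161 ± 48.7 CPM in IgG medium libraries, a log2 fold of -0.67 ± 0.17. IgG medium libraries 1 and 4 (118 and 125 CPM) stood close to the Arid5a range of 92.5 to 106 CPM, and library 3 at 222 CPM stood far above it. Ccl2 averaged 38.8 ± 5.20 CPM in Arid5a medium and 62.6 ± 12.8 CPM in IgG medium libraries, a log2 fold of -0.66 ± 0.18 that was not called. The Arid5a libraries were the more uniform ones for each gene: their SD was 6.35% of the mean for Ccl7, against 28.6% in IgG medium.

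The calls of Ccl7 and Ccl9 in medium hinged on the scaling factors and on which libraries were used. Neither Ccl7 nor Ccl9 was called with upper-quartile factors (-0.79 and -0.51), library totals (-0.76 and -0.48) or TMM factors from well-expressed transcripts (-0.76 and -0.49). Ccl7 lost its call without Arid5a medium 2 (-0.91), 3 (-0.95) or 4 (-0.91) or IgG medium 2 (-0.82) or 3 (-0.87). Ccl9 kept its call in 4 of the 15 fits that left out 1 library (Arid5a IL-17 4, IgG IL-17 4, IgG medium 1 or IgG medium 4), and had its smallest fold, -0.46, without IgG medium 3. Ccl2 was called without IgG IL-17 4 (-0.67) or IgG medium 1 (-0.76). The direction was below 0 for all 3 genes in each of the 26 alternative fits.

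With IL-17, none of the 3 transcripts was called between the RIPs, where 0.0673% of tested transcripts were called in either direction. Set against the median of the well-expressed transcripts, the log2 folds stood at 0.43 for Ccl7, 0.28 for Ccl9 and -0.11 for Ccl2. Ccl7 averaged 239.9 ± 33.1 CPM in Arid5a IL-17 (n = 4) and 159.9 ± 13.7 CPM in IgG IL-17 libraries (n = 3), a log2 fold of 0.59 ± 0.18. The Arid5a libraries (200.5 to 272 CPM) lay above the IgG libraries (144 to 168 CPM) without overlap, as for 5.3% of tested transcripts in that direction. Ccl9 averaged 185 ± 10.9 CPM in Arid5a IL-17 and 137 ± 21.8 CPM in IgG IL-17 libraries, a log2 fold of 0.43 ± 0.18, also without overlap (169 to 195 against 113 to 153 CPM).

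Ccl2 averaged 351 ± 40.2 CPM in Arid5a IL-17 and 343 ± 110.0 CPM in IgG IL-17 libraries, with a log2 fold of 0.04 ± 0.18 and a 95% interval of -0.31 to 0.38. Its IgG libraries spread from 262 to 468 CPM, on both sides of all Arid5a libraries. The sign of this fold changed with upper-quartile factors, library totals, TMM factors from well-expressed transcripts and DESeq2 (-0.012 to -0.10), and without Arid5a IL-17 1 (-0.045) or IgG IL-17 2 (-0.099) or 3 (-0.054). By edgeR 2 of the 3 genes had an unadjusted p below 0.05, as 8.95% of tested transcripts did. DESeq2 called 0 of the 3 and limma voom called 2, where they called 60 and 571 of all 17835 transcripts.

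The change of the Arid5a-to-IgG fold between IL-17 and medium joins these comparisons and shares their libraries. Ccl7 gained 1.53 ± 0.26 on the log2 scale and Ccl9 gained 1.11 ± 0.25, both called, as 0.869% of tested transcripts were in that direction. Ccl2 stood at 0.70 ± 0.25 and was not called. The well-expressed transcripts had a median of 0.34 here, so 1.19, 0.76 and 0.36 remained for Ccl7, Ccl9 and Ccl2. For Ccl7, the fold was 0.59 with IL-17 and -0.94 in medium, and for Ccl9 it was 0.43 with IL-17 and -0.67 in medium. Both gains thus joined an uncalled difference with IL-17 to a called shortfall in medium.

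No tested transcript was called for this change with upper-quartile factors, library totals or TMM factors from well-expressed transcripts in edgeR (2446, 2527 and 2592 had an unadjusted p below 0.05). Ccl7 then stood at 1.26, 1.22 and 1.19, Ccl9 at 0.84, 0.79 and 0.76, and Ccl2 at 0.46, 0.41 and 0.38. DESeq2 and voom called both Ccl7 and Ccl9, among 394 and 1758 calls over all 17835 transcripts. Ccl7 lost its call without Arid5a IL-17 1 (1.49). Ccl9 lost its call without Arid5a IL-17 1 (1.08) or 2 (1.10), Arid5a medium 2 (1.07) or 3 (1.13), IgG IL-17 2 (0.99) or IgG medium 3 (0.89).

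**Figure D3:**
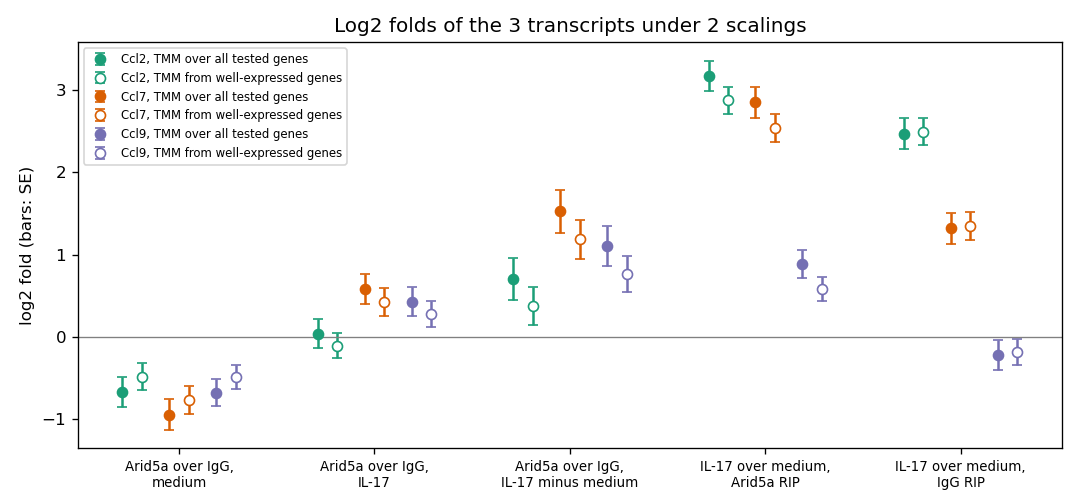
Log2 folds of Ccl2, Ccl7 and Ccl9 in the 5 comparisons, with TMM factors over all tested transcripts (filled) and from well-expressed transcripts only (open); bars are SE. The second scaling pulls the differences between the RIPs toward 0 and turns Ccl2 with IL-17 from 0.04 to -0.10.

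Because scaling moved these folds, the ratio of counts between 2 of the genes within a library was also described, since no scaling factor enters it. Ccl9 had 0.476, 0.556, 0.592 and 0.496 counts per Ccl2 count in Arid5a IL-17 libraries 1 to 4, and 0.430, 0.513 and 0.313 in IgG IL-17 libraries 2 to 4. In Arid5a medium libraries the ratio was 2.28, 2.99, 2.60 and 2.55, and in IgG medium libraries 2.34, 2.49, 2.92 and 2.37. Treatment separated this ratio in both RIPs, by -2.30 (Arid5a) and -2.62 (IgG) on the log2 scale, with a spread of 0.22 (SD) within groups. In medium the RIPs overlapped in it, with a difference of 0.04, so the shortfall of Ccl9 and that of Ccl2 in Arid5a libraries were close to each other.

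The ratio of Ccl7 to Ccl2 was 0.641, 0.805, 0.710 and 0.587 in Arid5a IL-17 libraries 1 to 4, and 0.550, 0.562 and 0.358 in IgG IL-17 libraries 2 to 4. It was 0.844, 1.03, 0.853 and 0.750 in Arid5a medium libraries, and 0.773, 1.17, 0.943 and 1.29 in IgG medium libraries. With IL-17 all Arid5a libraries lay above all IgG libraries, by a mean of 0.50 on the log2 scale. That mean was 0.29 without IgG IL-17 4, close to the spread within groups of 0.28. In medium the RIPs overlapped, and the difference of -0.25 was within that spread.

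Ccl9 relative to Ccl7 differed little between the RIPs with IL-17, at 0.690 to 0.845 in Arid5a and 0.782 to 0.912 in IgG libraries. In medium the log2 ratio averaged 1.59 in Arid5a libraries, against 0.88 to 1.63 in the 4 IgG libraries, and the RIPs overlapped too, with a difference of 0.29 beside a spread of 0.22. The change in the Arid5a-to-IgG difference was 0.75 for Ccl7 relative to Ccl2, 0.32 for Ccl9 relative to Ccl2 and -0.43 for Ccl9 relative to Ccl7. The value of 0.32 was 0.13 without IgG IL-17 4 and 0.16 from FPKM. Ccl7 thus gained the most of the 3 genes also where no scaling factor entered.

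**Figure D4:**
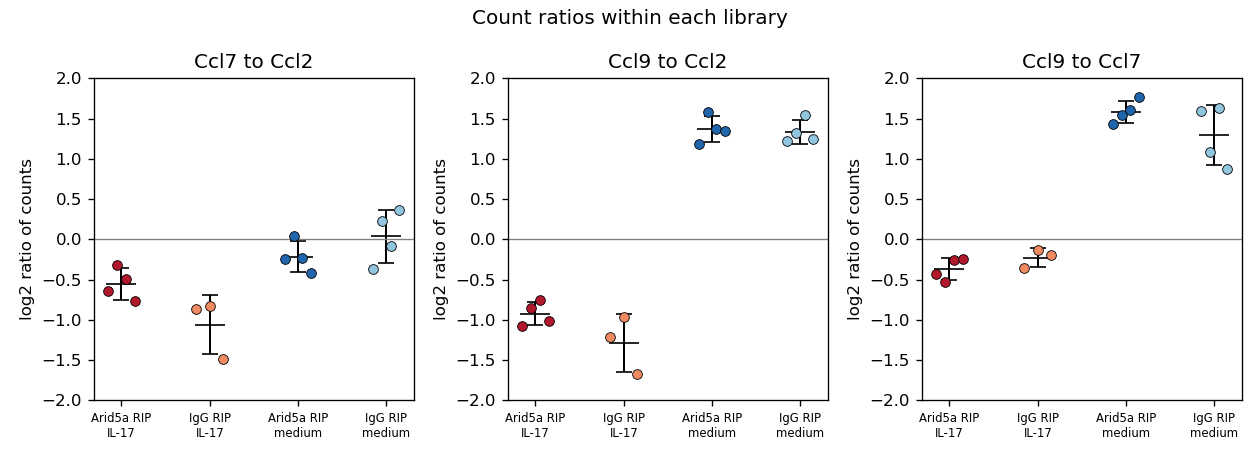
Log2 ratio of counts between pairs of the 3 genes within each library, by group; points are libraries, horizontal bars group means and whiskers the SD. IL-17 and medium are far apart in both ratios with Ccl9, and IgG IL-17 library 4 is the lowest in the ratio of Ccl7 to Ccl2.

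Transcripts with the most similar profile over the 15 libraries were ranked by Pearson r of log2 CPM among 13749 others, as a description with no test, since the points share the libraries and the treatment that separates them. For Ccl2 they were Fas, a death receptor gene (0.987), Zc3h12a, which encodes the RNase Regnase-1 (0.966), Ccl7 (0.962), the neutrophil chemokine gene Cxcl1 (0.961) and Cebpd, a C/EBP factor (0.959). For Ccl7 they were the vascular growth factor gene Vegfa (0.985), Fas (0.971), Stx6, a syntaxin (0.969), Ccl2 (0.962) and Zc3h12a (0.962). Vegfa averaged 465 ± 80.7 CPM in Arid5a IL-17 and 354 ± 30.05 in IgG IL-17 libraries, and 106 ± 8.96 in Arid5a medium and 189.5 ± 56.4 in IgG medium libraries. It thus had the order of groups seen for Ccl7.

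Ccl9 had other neighbours, at lower r. They were the nucleolar protein gene Npm1 (0.942), Sh3bgrl (0.935), the ribosome biogenesis gene Wdr43 (0.931), Hnrnpa1, an RNA-binding protein gene (0.928), and Cycs, which encodes cytochrome c (0.927). Npm1 averaged 1703 CPM in Arid5a IL-17 and 1341 in IgG IL-17 libraries, and 1068 in Arid5a medium and 1659 in IgG medium libraries. Ccl7 ranked 410 and Ccl2 ranked 1134 in likeness to Ccl9 (r of 0.741 and 0.630). Neither chemokine was thus among the closest profiles to Ccl9.

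The remaining CC ligands had low counts, and most did not pass the filter. Of 18, 9 had fewer than 10 counts in every library, Ccl26 had 0 counts in all, and 4 passed the filter (Ccl22, Ccl25, Ccl27a and Ccl28), with at most 64 counts (Ccl27a). None of these 4 was called by edgeR or DESeq2 in any comparison. For IL-17 in the Arid5a RIP voom called 3 of them, where it called 7497 of all 17835 tested transcripts. An unadjusted p below 0.05 by edgeR was found for 2 in medium between the RIPs, 0 between the RIPs with IL-17, 1 for the change between these, 1 for IL-17 in the Arid5a RIP and 0 in the IgG RIP. Over all tested transcripts the shares at that p were 12.8%, 8.95%, 16.3%, 22.3% and 11.1% in the same order. Ccl27a, chosen after its values were seen, had 42 to 64 counts in Arid5a medium and 0 to 22 counts in IgG medium libraries, and its log2 fold of 1.83 ± 0.55 was not called (adjusted p = 0.124, edgeR).

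The receptors also had low counts, though all 15 passed the filter. The 15 CC receptor and scavenging receptor genes had at most 48 counts in a library, among them Ccr2, the receptor of Ccl2 and Ccl7, with at most 22, and Ccr1, the receptor of Ccl9, with at most 25. Their sum was 22.0 to 77.4 CPM in Arid5a IL-17 and 48.7 to 61.2 in IgG IL-17 libraries, and 66.6 to 108 in Arid5a medium and 14.9 to 91.2 in IgG medium libraries. None of them was called by edgeR or DESeq2 in any of the 5 comparisons, with 0 to 4 at an unadjusted p below 0.05 by edgeR. For IL-17 in the Arid5a RIP voom called 7 of the 15, where it called 7497 of all 17835 tested transcripts. It called 2 for the change between the RIPs and 1 between the RIPs with IL-17, beside 1758 and 571 over all tested transcripts. At such counts only large differences could be seen.

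Of 15 genes of other stromal signals to monocytes, 11 passed the filter, and 5 were higher with IL-17 in the Arid5a RIP and 1 in the IgG RIP, where 4.84% and 0.258% of all tested transcripts were. The list's median log2 fold was 0.41 and 0.15, against 0.30 and -0.04 over well-expressed transcripts. Csf1, which encodes the growth factor of macrophages, averaged 487 ± 117 CPM with IL-17 and 309 ± 9.85 CPM in medium in the Arid5a RIP, a log2 fold of 0.65 ± 0.15 (adjusted p = 0.00507, edgeR). The complement gene C3 rose by 2.58 ± 0.58 in the Arid5a RIP (adjusted p = 0.00571) and 2.68 ± 0.65 in the IgG RIP (adjusted p = 0.0415). The adhesion receptor gene Vcam1 (1.03 ± 0.27, adjusted p = 0.0164) and Anxa1 (0.54 ± 0.14, adjusted p = 0.0184) were higher in the Arid5a RIP, as was Cx3cl1. The calls of Csf1, Vcam1, Anxa1 and Cx3cl1 were lost with upper-quartile factors, library totals and TMM factors from well-expressed transcripts, and C3 in the IgG RIP was called in 9 of 26 alternative fits. Cxcl12, the niche chemokine and by FPKM above Ccl2 in all 4 groups, stood at 0.34 ± 0.13 (adjusted p = 0.136) and was not called.

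Of 23 genes that lead from the IL-17 receptor to chemokine induction, 7 were higher and 1 lower with IL-17 in the Arid5a RIP, and 3 higher and 1 lower in the IgG RIP. Over all tested transcripts 4.84% and 0.258% were called higher and 0.813% and 0.235% lower in these RIPs. Of the 7, Chuk and Cebpb were not called with the 3 other scaling factors, and Tnfaip3 not with TMM factors from well-expressed transcripts. In the Arid5a RIP, the largest of the named ones were Cebpd (1.96 ± 0.26, adjusted p = 5.18e-06), Nfkbiz, an atypical IkB protein (1.94 ± 0.20, adjusted p = 1.78e-08), Nfkbia (1.87 ± 0.22, adjusted p = 7.98e-07) and the NF-kB subunit gene Nfkb1 (1.12 ± 0.20, adjusted p = 0.000613). The receptor genes Il17ra and Il17rc were not called. In the IgG RIP, Nfkbiz (1.48 ± 0.21), Cebpd (1.70 ± 0.28) and Nfkb1 (1.34 ± 0.22) were higher and the AP-1 gene Fos lower (-1.98 ± 0.47, adjusted p = 0.0387). Fos was called in 18 of 26 alternative fits in the Arid5a RIP and in 6 of 26 in the IgG RIP. The list's median log2 fold was 0.40 and 0.11 in the Arid5a and IgG RIPs. The folds of Ccl2 exceeded those of all 23 in both RIPs. No gene of this list was called between the RIPs by edgeR or DESeq2, in medium (4 at an unadjusted p below 0.05) or with IL-17 (1). There voom called 0 and 1 of the list, beside 120 and 571 of all 17835 tested transcripts.

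Of 16 factors known to bind or degrade cytokine and chemokine mRNAs, 5 were higher with IL-17 in the Arid5a RIP and 2 in the IgG RIP, where 4.84% and 0.258% of all tested transcripts were. Zc3h12a rose by 2.79 ± 0.26 in the Arid5a RIP (adjusted p = 2.34e-09) and by 1.75 ± 0.27 in the IgG RIP (adjusted p = 0.000337), and the Roquin-1 gene Rc3h1 by 0.89 ± 0.15 and 0.72 ± 0.17. The call of Rc3h1 in the IgG RIP was present in 14 of 26 alternative fits and lost without any 1 of the IgG IL-17 libraries. Srsf1 and Elavl1 were higher by 0.64 ± 0.14 and 0.71 ± 0.18 in the Arid5a RIP. These calls, and that of Rc3h2, were lost with the 3 other scaling factors. The list's median log2 fold was 0.46 and 0.09. In medium, Zfp36l2 (-0.60 ± 0.14, adjusted p = 0.0399) and Celf1 (-0.62 ± 0.15, adjusted p = 0.0470) were lower in Arid5a than in IgG libraries, in the direction of the 3 chemokines. Zfp36l2 also gained with IL-17 between the RIPs (0.90 ± 0.21, adjusted p = 0.0263). These 3 calls between the RIPs were lost with upper-quartile factors, library totals and TMM factors from well-expressed transcripts. The Arid5a transcript itself stood at -0.17 ± 0.38 between the RIPs with IL-17 and -0.07 ± 0.37 in medium, and was not called.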

How the data were processed

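Per the labels' protocols, RNA from Arid5a or IgG2b precipitates was made into SMART-Seq Stranded libraries. Per the submitters' processing notes, the tools were R 4.3.0, DESeq2 1.36.0, RSEM 1.3.1 and STAR 2.7.9, and the genome build was mm10. What each tool did, with which annotation and strandedness, is not given in the sources used here. The authors deposited expected counts per gene (2.66% to 10.3% of values not whole) and FPKM per gene.

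The expected counts were rounded, filtered with filterByExpr by group, scaled with TMM and fitted with edgeR 4.0.16 (robust quasi-likelihood, R 4.3.3) to 4 group means over all 15 libraries. Adjusted p are Benjamini-Hochberg over the 17835 tested transcripts of a comparison. SE is that of the fit. FPKM served for levels between genes. Alternatives used DESeq2 1.42.0 and limma 3.58.1. The procedure was also run on simulated counts, and no result given here rests on that run. A gene that was not called may still differ between groups. Symbols were matched to RefSeq GRCm38.p6.

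The 3 genes, the lists and the alternatives were chosen with earlier results of these data known. Named beyond the 3 genes are called list members (up to 4 per list and comparison, by smallest p), the 5 most alike transcripts and neighbouring genes. Any other gene (Ccl27a, Ccr1, Ccr2, Cxcl12, Cx3cl1, Il17ra, Il17rc, Arid5a, markers) was named after its values were seen.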

Additional observations from a re-analysis of the deposited data

Results flagged for a closer look

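Ccl2 in Arid5a medium library 2 stood at 31.0 CPM while the other 3 libraries of its group lay between 41.0 and 41.7 CPM, which placed it far from the others by Dixon's test. It rests on 75 counts. Of 18 groups of values tested in this way, 1 was marked, and chance marks about 1 group in 20.

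The change of the Arid5a-to-IgG fold between IL-17 and medium was called for Ccl7 (1.53 on the log2 scale), Ccl9 (1.11) and Zfp36l2 (0.90). These calls came from the interaction term of the edgeR fit. They were lost with upper-quartile factors, library totals and TMM factors from well-expressed transcripts. Ccl7, Ccl9 and Zfp36l2 were called in 19, 14 and 10 of 25 alternative fits. Ccl7 and Ccl9 were chosen with their values in these libraries known, and which comparison led to the choice is not stated. The list that holds Zfp36l2 was also chosen with earlier results of these data known.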

How the results depend on the processing

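For Ccl2, Ccl7 and Ccl9, the direction was kept in 5 comparisons under all alternatives run, except Ccl2 between the RIPs with IL-17. That fold, 0.04, was -0.012 with DESeq2, -0.10 with TMM factors from well-expressed transcripts, -0.064 scaled by library totals and -0.054 under upper-quartile scaling, and lay between -0.10 and 0.33 when 1 library was left out. The cause was not tested.

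Calls lost in medium and for the change with IL-17 under other scalings are given with the results (for Ccl7 -0.79, -0.76 and -0.76 in medium and 1.26, 1.22 and 1.19 for the change; for Ccl9 -0.51, -0.48 and -0.49, and 0.84, 0.79 and 0.76). With limma on log2(FPKM + 1), calls were lost for Ccl7 (-0.78 in medium, 1.42 for the change) and Ccl9 (-0.46, 0.81, and 0.68 for IL-17 in the Arid5a RIP). With log2(FPKM + 0.1) these were -0.79, 1.43, -0.47, 0.83 and 0.69. With only the libraries compared, Ccl7 (-0.91) and Ccl9 (-0.63) were no longer called in medium. Ccl9 in medium also lost its call with no filter (-0.65), voom (-0.57) and without IgG medium 2 and IgG IL-17 4 together (-0.63), as did Ccl7 (-0.83) in the last. Calls were gained for Ccl2 in medium with DESeq2 (-0.63), for Ccl2 in the change with voom (0.79) and without IgG medium 2 and IgG IL-17 4 (0.96), and for Ccl7 (0.64) and Ccl9 (0.53) between the RIPs with IL-17 with voom. Leaving out 1 library gave folds in medium of -0.76 to -0.54 for Ccl2, -1.14 to -0.82 for Ccl7 and -0.80 to -0.46 for Ccl9, and in the change of 1.42 to 1.73 for Ccl7 and 0.89 to 1.23 for Ccl9. Levels and ratios within a library moved by less than the spread within groups under each alternative.

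No pairing of libraries by replicate number was seen: deviations from group means correlated by over 0.1 in 1 of 21 same-numbered pairs, and 2 of 15 libraries correlated best with their own number. The highest r was 0.20 among same-numbered pairs and 0.16 among other pairs. With 3 or 4 libraries in a group, this check cannot exclude pairing. With the replicate number as a block, Ccl9 in medium (-0.65) was no longer called, and calls over all transcripts were 49 (5 and 44) in medium, 5 with IL-17 and 85 (81 and 4) for the change.

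Counts of calls over all transcripts, as higher and lower, moved as follows. In medium, 112 calls (10 and 102) were 4 (2 and 2) under upper-quartile scaling, 13 (8 and 5) by library totals, 0 with TMM factors from well-expressed transcripts (2065 unadjusted by edgeR under 0.05), 327 (26 and 301) with DESeq2, 1 with only the libraries compared and with both FPKM scales, and 15 without IgG medium 2 and IgG IL-17 4. With IL-17, 12 (10 and 2) became 6 under upper-quartile scaling, 0 with TMM factors from well-expressed transcripts (1438 unadjusted), 60 (35 and 25) with DESeq2, 571 (271 and 300) with voom, 26 with no filter and 5 with both FPKM scales. For the change, 174 (155 and 19) became 0 under the 3 other scalings, 394 (226 and 168) with DESeq2, 1758 (938 and 820) with voom, 6 and 2 with FPKM and 309 (208 and 101) without IgG medium 2 and IgG IL-17 4. For IL-17 in the Arid5a RIP, 1008 (863 and 145) became 321 (202 and 119), 301 (156 and 145) and 321 (115 and 206) under the other scalings, 7497 (3372 and 4125) with voom, 2977 with only the libraries compared, 113 and 75 with FPKM and 2600 without IgG medium 2 and IgG IL-17 4; DESeq2 gave 1350 (795 and 555). In the IgG RIP, 88 (46 and 42) became 315 (115 and 200) with DESeq2, 45 (30 and 15) with voom, 16 with only the libraries compared, and 45 and 40 with FPKM. Leaving out 1 library gave 0 to 350, 2 to 76, 0 to 715, 308 to 2257 and 43 to 257 calls in these 5 comparisons. The 0 in medium came without Arid5a medium 2 or 3 or IgG medium 3 (by edgeR 1562, 1504 and 1944 had an unadjusted p under 0.05), and that for the change without Arid5a IL-17 1 (2239). Of 857 refits of called list genes, 267 lost the call and none changed sign.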
